A study of Mus musculus with 6 samples.

Results

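Secreted inflammatory signals are the subject here: the CC chemokine genes Ccl2, Ccl3, Ccl4, Ccl6 and Ccl12, the CXC chemokine gene Cxcl10, the interleukin-1 genes Il1a and Il1b, and the tumour necrosis factor gene Tnf. They were chosen by gene symbol, and all 9 are among the 32285 genes of the count matrices. Their unique molecular identifiers (UMIs, counts of captured RNA molecules) were counted in 6 single-cell libraries of mouse hippocampus, in barcodes set as microglia and in all other barcodes. Each of the 3 groups had 2 libraries, named here by group and replicate (5×FAD-PBS-1 and so on), and all mice were 6 months old. The group 5×FAD-Aβ3FTnAu held 5×FAD mice given Aβ3FTnAu, the group 5×FAD-PBS held 5×FAD mice given phosphate-buffered saline (PBS), and the group WT-PBS held wild-type littermates given PBS. The 5×FAD line expresses mutant human amyloid precursor protein and presenilin transgenes from a neuronal promoter and builds up amyloid-β plaques. The agent Aβ3FTnAu is described in the title of the series as a nanostructure of protein and gold that is directed at plaques of human amyloid-β. Its dose, route and duration, and whether the libraries of a group came from separate animals, are not given in the sources used here, so each p-value measures the spread between libraries, which may be technical.

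Chemokines are small proteins that are secreted by activated cells, bind G protein-coupled receptors and draw leukocytes along their gradient. Ccl3 and Ccl4 are the macrophage inflammatory proteins 1α and 1β, Ccl2 and Ccl12 signal through Ccr2, and Cxcl10, an interferon-induced chemokine, signals through Cxcr3. Interleukin-1α and interleukin-1β act on the same receptor, but interleukin-1β must be cut by caspase-1 before it is active, and tumour necrosis factor acts through receptors of its own. In the brain, microglia are a main source of many of these signals, and microglia that gather at amyloid plaques are known to transcribe several of them.

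In the GENCODE vM21 annotation of GRCm38, Ccl6 (chr11:83587882-83593087, minus strand), Ccl3 (chr11:83647844-83649355, minus strand) and Ccl4 (chr11:83662584-83664683, plus strand) are neighbours on chromosome 11, and Ccl2 (chr11:82035571-82037453) and Ccl12 (chr11:82101845-82103400), both on the plus strand, lie on the same chromosome. The other members are Il1a (chr2:129299610-129309972), Il1b (chr2:129364570-129371139), Cxcl10 (chr5:92346638-92348889) and Tnf (chr17:35199381-35202007), all on the minus strand. Ccl3, Ccl4, Ccl12 and Tnf overlap no other annotated gene, while each of the other members overlaps a gene on the opposite strand.

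The 250 bases before the start of a gene show whether the letters bound by inflammatory transcription factors are present. Promoters from RefSeq (GRCm38.p6) were listed for 7 of the 9 members, all but Ccl2 and Ccl4, and 3 are printed here 5′ to 3′ on the gene's strand, for Ccl3, which rose in untreated 5×FAD mice, and for Cxcl10 and Tnf, which had few UMIs. Capitals mark every match to the κB letters, that is GGG, 5 bases of any kind and CC, or the same letters on the other strand. The coordinates are chr11:83649379-83649628 for Ccl3, chr5:92348890-92349139 for Cxcl10 and chr17:35202008-35202257 for Tnf.
Ccl3: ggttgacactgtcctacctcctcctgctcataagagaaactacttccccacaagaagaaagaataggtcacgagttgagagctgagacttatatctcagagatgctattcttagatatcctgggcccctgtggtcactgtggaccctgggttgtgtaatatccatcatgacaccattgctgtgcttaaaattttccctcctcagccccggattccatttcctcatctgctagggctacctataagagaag
Cxcl10: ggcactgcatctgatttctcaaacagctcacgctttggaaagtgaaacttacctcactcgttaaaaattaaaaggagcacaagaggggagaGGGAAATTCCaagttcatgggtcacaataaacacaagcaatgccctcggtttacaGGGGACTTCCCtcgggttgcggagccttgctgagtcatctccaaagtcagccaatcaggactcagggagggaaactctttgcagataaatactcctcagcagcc
Tnf: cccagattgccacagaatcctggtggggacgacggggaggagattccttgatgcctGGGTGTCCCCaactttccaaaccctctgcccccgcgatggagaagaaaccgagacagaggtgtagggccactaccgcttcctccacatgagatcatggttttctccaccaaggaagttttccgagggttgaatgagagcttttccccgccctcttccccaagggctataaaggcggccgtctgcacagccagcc
In windows of 250 bases before to 50 after the start, the κB letters were present in 2 of the 7 promoters, Cxcl10 and Tnf, and in 50.8% of all 32851 promoters listed. The pair of overlapping matches in Cxcl10 spans the bases from -104 to -94, and Tnf has a further match from 30 to 39 that is past the printed stretch. The AP-1 letters TGANTCA were in Cxcl10 and Il1a and in 7.81% of all promoters, and the interferon-response letters, GAAA, 2 bases of any kind and GAAA, were in Cxcl10 and in 3.44%. TATAAA was in Ccl12, Il1a, Il1b and Tnf and in 13.6% of all promoters. All letters were read on both strands, and no match of the 4 kinds was in the Ccl3 window. These are matches of letters, and no binding was measured.

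A barcode was set as microglia where Inpp5d, Csf1r, Cx3cr1 and Dock8 together had at least 3 UMIs, with at least 2 of the 4 genes seen and at least 0.2% of the barcode's UMIs. This gave 124 and 145 microglia barcodes in 5×FAD-Aβ3FTnAu, 316 and 521 in 5×FAD-PBS, and 271 and 125 in WT-PBS. Of 50145 barcodes kept, 1502 were microglia barcodes. All 18 microglia markers were seen in the microglia barcodes of every library, and the neutrophil genes S100a8, S100a9 and Retnlg, the monocyte genes Ly6c2 and Chil3 and the T-cell gene Cd3e had 0 UMIs. Of 10 neutrophil markers 7 were at 0 in all libraries and Csf3r, which microglia also transcribe, was at 388 to 625 CPM, while the 8 monocyte markers summed to 16.3 to 74.5 CPM and the 12 lymphocyte markers to 0 to 9.80 CPM. Summed microglia marker levels were 7768 and 7954 CPM, the usual depth-scaled unit (a gene's UMIs over all UMIs of that class in the library) in 5×FAD-Aβ3FTnAu, 13946 and 15225 in 5×FAD-PBS, and 20087 and 9743 in WT-PBS. Microglia barcodes were shallow, with medians of 886.5 to 1190.5 UMIs against 3950 to 5229.5 in all other barcodes of a library, and library totals ran from 32528417 to 76780861 UMIs. Between 9 and 45 barcode sequences were shared by any pair of libraries, and 0 were microglia in both. Barcodes with no mitochondrial UMI, a sign of RNA quality or of captured nuclei, made up 64.5% and 67.6% of microglia barcodes in 5×FAD-Aβ3FTnAu, 24.7% and 16.7% in 5×FAD-PBS, and 62.7% and 30.4% in WT-PBS. Microglia marker level was lower in both treated libraries than in both 5×FAD-PBS libraries, with WT-PBS on either side of 5×FAD-PBS, and the share with no mitochondrial UMI was higher in both treated libraries than in 5×FAD-PBS. Values on either side of the mitochondrial split are given for Ccl3 and Ccl4, and the part of marker level was not tested.

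In microglia barcodes, Ccl3 and Ccl4 were high in untreated 5×FAD mice, at or near 0 in wild type and in between in treated 5×FAD mice. Ccl6 followed the same order with smaller differences, and Il1a overlapped between all 3 groups. Ccl2, Cxcl10, Il1b, Tnf and Ccl12 were at or close to 0 UMIs in most libraries. In the test across all genes, Ccl3 and Ccl4 rose in 5×FAD-PBS against WT-PBS, Ccl3 rose in 5×FAD-Aβ3FTnAu against WT-PBS, and no member passed in 5×FAD-Aβ3FTnAu against 5×FAD-PBS.

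Ccl3 had 5 and 5 UMIs in microglia barcodes of 5×FAD-Aβ3FTnAu, 24 and 60 in 5×FAD-PBS, and 0 and 0 in WT-PBS. Scaled to depth, this was 41.4 and 30.7 CPM in 5×FAD-Aβ3FTnAu and 56.8 and 98.02 CPM in 5×FAD-PBS, with limits of 10.8 and 20.05 CPM in the WT-PBS libraries at a count of 0. The point values of the groups did not overlap: both 5×FAD-PBS libraries lay above both treated ones, and both treated ones lay above the WT-PBS limits. The treated values rest on 5 UMIs each and have a wide counting error of their own. The share of all genes whose groups do not overlap was not counted, here or for the members below. The limit is that of 3 UMIs in the library's microglia barcodes, and limits and intervals here cover counting error only.

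Ccl4 had 5 and 9 UMIs in 5×FAD-Aβ3FTnAu, 53 and 125 in 5×FAD-PBS, and 3 and 0 in WT-PBS microglia barcodes. The levels were 41.4 and 55.3 CPM in 5×FAD-Aβ3FTnAu, 126 and 204 CPM in 5×FAD-PBS, and 10.8 and 0 CPM in WT-PBS, where the count of 0 allowed up to 20.05 CPM. As for Ccl3, the point values of the 3 groups did not overlap and 5×FAD-PBS was highest, with the share of all such genes again not counted. Up to 6 Ccl4 UMIs were seen in a microglia barcode of either 5×FAD-PBS library, up to 3 in 5×FAD-Aβ3FTnAu and 1 in WT-PBS.

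Ccl6, a CC chemokine gene of rodents that myeloid cells transcribe, had 6 and 7 UMIs in 5×FAD-Aβ3FTnAu, 34 and 48 in 5×FAD-PBS, and 9 and 5 in WT-PBS. The levels were 49.6 and 43.0 CPM in 5×FAD-Aβ3FTnAu, 80.5 and 78.4 CPM in 5×FAD-PBS, and 32.4 and 33.4 CPM in WT-PBS. The point values kept the order of Ccl3 and Ccl4 without overlap, but treated and WT-PBS libraries rested on 5 to 9 UMIs and could not be told apart. Unlike those genes, Ccl6 was seen in every library of every group.

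Ccl12, a Ccr2 ligand, had 2 and 0 UMIs in 5×FAD-Aβ3FTnAu, 4 and 8 in 5×FAD-PBS, and 9 and 1 in WT-PBS, and its highest level was 32.4 CPM in a WT-PBS library. The groups overlapped fully. Ccl2, the main Ccr2 ligand, had 1 UMI in all 1502 microglia barcodes, in 5×FAD-Aβ3FTnAu-2. Cxcl10 had 0 and 1 UMIs in 5×FAD-Aβ3FTnAu, 1 and 0 in 5×FAD-PBS, and 0 and 0 in WT-PBS. A count of 0 allowed shares of microglia barcodes of up to 2.42% and 2.07% in 5×FAD-Aβ3FTnAu, 0.949% and 0.576% in 5×FAD-PBS, and 1.11% and 2.4% in WT-PBS.

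Il1a had 3 and 9 UMIs in 5×FAD-Aβ3FTnAu, 19 and 35 in 5×FAD-PBS, and 10 and 8 in WT-PBS microglia barcodes. Its levels were 24.8 and 55.3 CPM in 5×FAD-Aβ3FTnAu, 45.0 and 57.2 CPM in 5×FAD-PBS, and 36.0 and 53.5 CPM in WT-PBS. The ranges of the 3 groups overlapped. Il1b had 0 and 3 UMIs in 5×FAD-Aβ3FTnAu, 0 and 4 in 5×FAD-PBS, and 0 and 0 in WT-PBS. Tnf had 0 and 0 UMIs in 5×FAD-Aβ3FTnAu, 3 and 8 in 5×FAD-PBS, and 1 and 2 in WT-PBS. With 0 counts, the treated libraries allowed up to 24.8 and 18.4 CPM of Tnf, above the 7.11 and 13.1 CPM measured in 5×FAD-PBS and the 3.60 and 13.4 CPM in WT-PBS, so a difference in Tnf was not detectable at this depth.

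**Figure D1:**
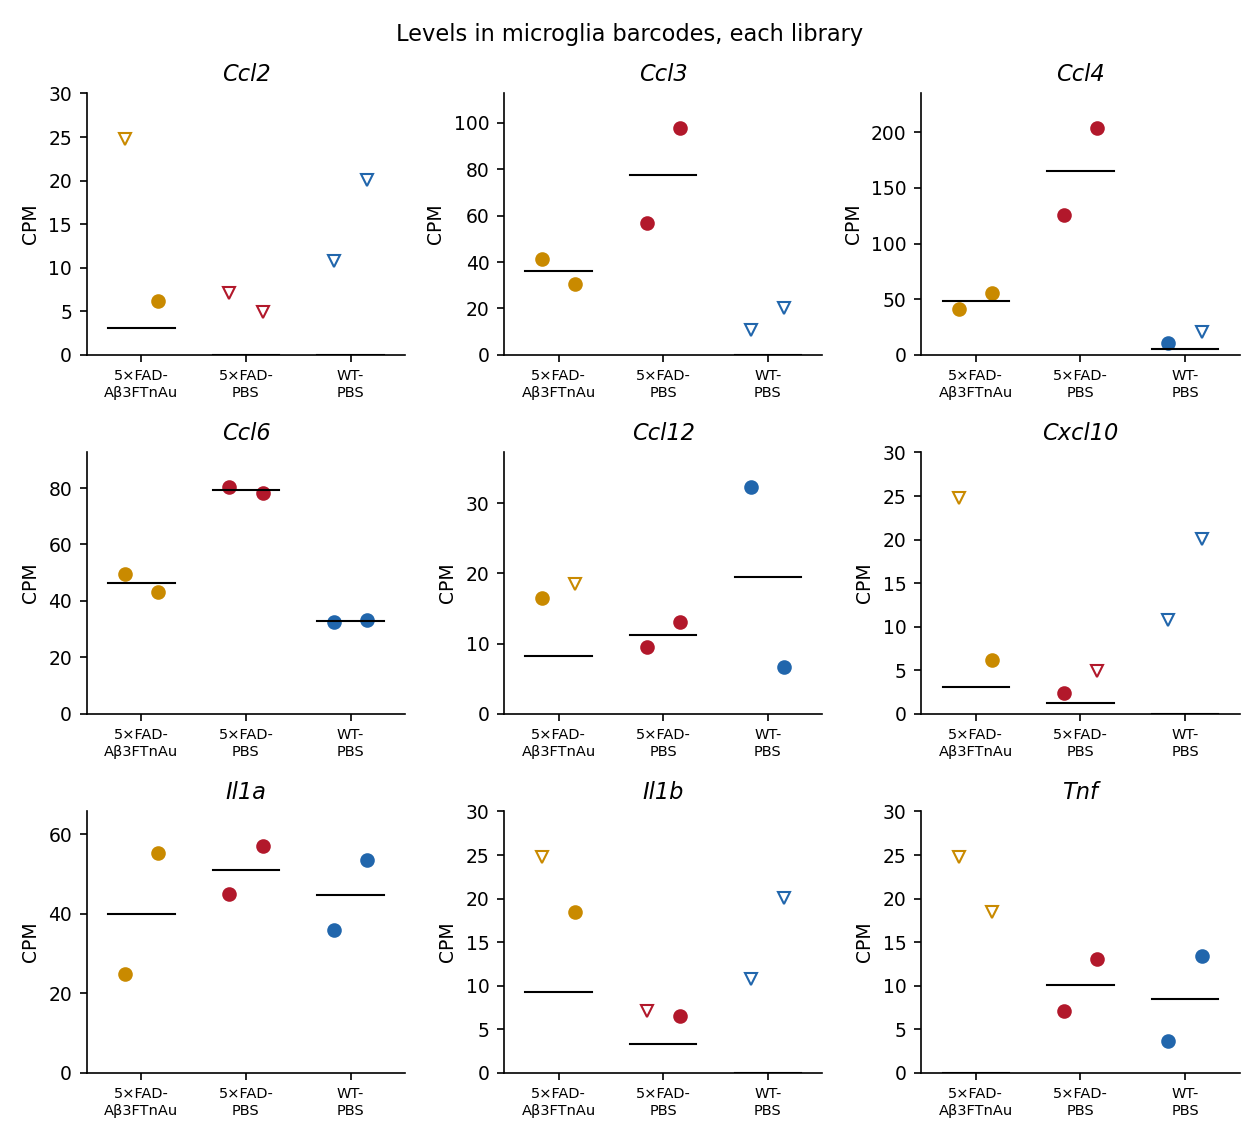
Levels of the 9 members in microglia barcodes, in CPM on linear axes that start at 0 and differ between genes, for the groups 5×FAD-Aβ3FTnAu, 5×FAD-PBS and WT-PBS. Filled circles are libraries, open triangles are libraries with a count of 0 drawn at the limit of 3 UMIs, and bars are group means with 0 counts taken as 0; Ccl3, Ccl4 and Ccl6 are highest in both 5×FAD-PBS libraries, while Il1a overlaps between groups.

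The comparison of 5×FAD-PBS with WT-PBS gives the difference of the plaque model from wild type. Of 5607 genes tested in microglia barcodes, 5.44% passed the adjusted p of 0.05, of which 176 were higher (3.14%) and 129 lower (2.3%), and 2 of the 4 members tested passed, both higher. The other 5 members had too few UMIs for the filter on low counts. Ccl3 was at 77.4 ± 29.1 CPM in 5×FAD-PBS (SD, n = 2 libraries) and at 0 in both WT-PBS libraries, at least 11.6-fold higher when 3 UMIs over the WT-PBS group stand for its 0, and the exact 95% counting interval of the ratio begins at 9.21. In edgeR's quasi-likelihood test, its Benjamini-Hochberg adjusted p was 0.000716. Ccl4 was at 165 ± 55.6 CPM in 5×FAD-PBS and 5.40 ± 7.63 CPM in WT-PBS (SD, n = 2 libraries each), a log2 fold change of 4.49 ± 0.58 (SE) with an edgeR adjusted p of 9.2e-05. Since WT-PBS held 3 Ccl4 UMIs in all, the ratio of summed levels was 24.5 with an exact 95% counting interval of 8.26 to 120. Both kept their call under every alternative in which they could be fitted, 12 of 12 for Ccl3 and 15 of 15 for Ccl4.

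Ccl6 was at 79.5 ± 1.496 CPM in 5×FAD-PBS and 32.9 ± 0.733 CPM in WT-PBS (SD, n = 2 libraries each) and missed the threshold (log2 1.25 ± 0.39, SE, edgeR adjusted p = 0.0708). Il1a was at 51.1 ± 8.61 CPM in 5×FAD-PBS and 44.7 ± 12.4 CPM in WT-PBS, with a log2 fold change of 0.27 ± 0.43 (edgeR adjusted p = 0.806). The exact 95% counting interval of its ratio, 0.716 to 2.25, includes no difference and does not reach the ratios of Ccl3 or Ccl4.

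The comparison of 5×FAD-Aβ3FTnAu with 5×FAD-PBS gives the difference under treatment. In microglia barcodes 0.41% of genes passed, 4 higher (0.0713%) and 19 lower (0.339%), and 0 of the 4 members passed in edgeR's test. Ccl4 was at 48.3 ± 9.87 CPM in 5×FAD-Aβ3FTnAu and 165 ± 55.6 CPM in 5×FAD-PBS (SD, n = 2 libraries each), a log2 fold change of -1.78 ± 0.42 (SE). Its unadjusted p was 0.000592 and its edgeR adjusted p 0.0922. Ccl3 was at 36.0 ± 7.51 CPM in 5×FAD-Aβ3FTnAu and 77.4 ± 29.1 CPM in 5×FAD-PBS, a log2 fold change of -1.18 ± 0.50 (edgeR adjusted p = 0.404). The ratios of summed levels, with exact 95% counting intervals, were 0.287 (0.154 to 0.494) for Ccl4 and 0.434 (0.201 to 0.839) for Ccl3. Ccl4 passed under 5 of 15 alternatives, with adjusted p between 7.0e-05 and 0.955, and Ccl3 under 0 of 12. Ccl4 passed without 5×FAD-PBS-1 (adjusted p = 0.00294), without WT-PBS-1 or WT-PBS-2, with no filter on low counts and among barcodes with few markers of other classes (adjusted p = 0.0382).

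Ccl6 gave a log2 fold change of -0.80 ± 0.40 (SE) in 5×FAD-Aβ3FTnAu against 5×FAD-PBS (edgeR adjusted p = 0.500), and Il1a gave -0.31 ± 0.49 (edgeR adjusted p = 0.892). In the same comparison 3 of 18 microglia markers fell and 0 rose, with a median log2 fold change of -0.94, so lower marker levels went with lower chemokine levels. Their part in the chemokine difference was not tested.

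The comparison of 5×FAD-Aβ3FTnAu with WT-PBS shares libraries with each of the others. Here 3.98% of genes passed, 138 higher (2.46%) and 85 lower (1.52%), and 1 of the 4 members passed, Ccl3. With 10 UMIs in 5×FAD-Aβ3FTnAu and 0 in WT-PBS, Ccl3 was at least 5.03-fold higher by the same measure (edgeR adjusted p = 0.0343), and the exact 95% counting interval of the ratio begins at 3.38. This call rests on few UMIs and was kept under 7 of 12 alternatives, with adjusted p up to 0.120 without WT-PBS-1, and it was lost without either treated library. Ccl4 had a ratio of 7.04 with an exact 95% counting interval of 1.96 to 38.2 and missed the threshold (log2 2.71 ± 0.86, SE, edgeR adjusted p = 0.0826). For Ccl6 the log2 fold change was 0.45 ± 0.53 (edgeR adjusted p = 0.723), and for Il1a it was -0.04 ± 0.57 (edgeR adjusted p = 0.979). In the same comparison 7 of 18 microglia markers fell, with a median log2 fold change of -1.25.

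**Figure D2:**
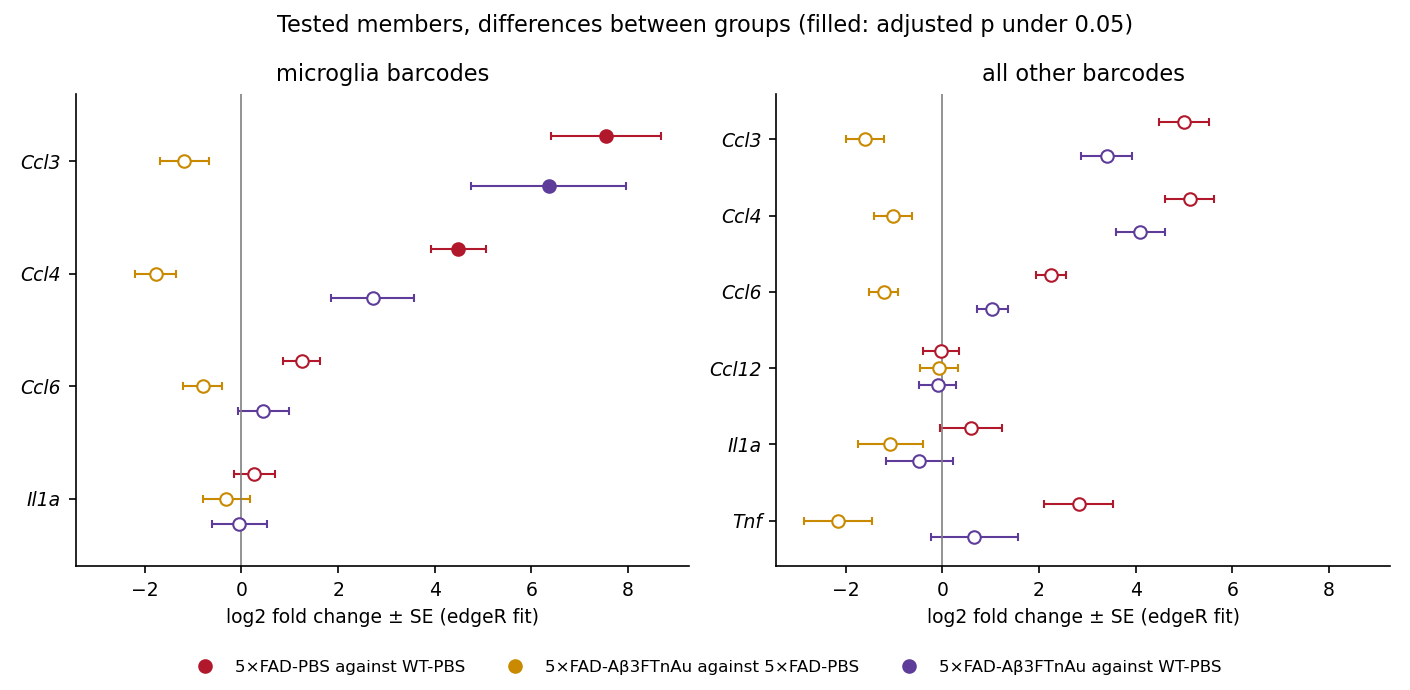
Log2 fold changes with standard errors from the edgeR fit for every member tested, in microglia barcodes on the left and all other barcodes on the right, one color per comparison, filled where the adjusted p was under 0.05. In microglia barcodes Ccl3 and Ccl4 stand above 0 in 5×FAD-PBS against WT-PBS and only they and Ccl3 in 5×FAD-Aβ3FTnAu against WT-PBS are filled, while Il1a lies close to 0 in all 3 comparisons; the fitted value of Ccl3 against WT-PBS depends on the prior count, since WT-PBS had 0 UMIs.

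Counted by barcodes, any member was seen in 15 of 124 (12.1%) and 25 of 145 (17.2%) microglia barcodes in 5×FAD-Aβ3FTnAu, 89 of 316 (28.2%) and 159 of 521 (30.5%) in 5×FAD-PBS, and 31 of 271 (11.4%) and 15 of 125 (12%) in WT-PBS. Because depth differed, each barcode was also thinned at random to 500 UMIs, a depth that all kept barcodes reached. The share with any member was then 5.65% and 7.59% in 5×FAD-Aβ3FTnAu, 18.4% and 19.2% in 5×FAD-PBS, and 5.90% and 4.00% in WT-PBS. At this depth the treated libraries lay beside the WT-PBS libraries, and both lay below 5×FAD-PBS. Thinned to 1000 UMIs, which leaves out shallower barcodes, the shares were 7 of 42 (16.7%) and 15 of 76 (19.7%) in 5×FAD-Aβ3FTnAu, 61 of 233 (26.2%) and 83 of 277 (29.96%) in 5×FAD-PBS, and 15 of 116 (12.9%) and 8 of 64 (12.5%) in WT-PBS, so that the treated libraries lay between the other groups. These shares were not tested, and a two-sided exact permutation test of 2 libraries against 2 cannot give a p below 0.333.

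Ccl4 was seen in 2 of 124 and 4 of 145 thinned microglia barcodes of 5×FAD-Aβ3FTnAu, 25 of 316 and 46 of 521 of 5×FAD-PBS, and 3 of 271 and 0 of 125 of WT-PBS. These shares were 1.61% and 2.76% in 5×FAD-Aβ3FTnAu, 7.91% and 8.83% in 5×FAD-PBS, and 1.11% and 0% in WT-PBS, where the count of 0 allowed up to 2.4%. The exact 95% intervals of the 5×FAD-PBS libraries, 5.19% to 11.5% and 6.54% to 11.6%, lay above all the other point values. Unthinned, the Ccl4 shares were 2.42% and 4.83% in 5×FAD-Aβ3FTnAu, 12.03% and 13.8% in 5×FAD-PBS, and 1.11% and 0% in WT-PBS.

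Ccl3 was seen in 3 and 1 thinned microglia barcodes of 5×FAD-Aβ3FTnAu (2.42% and 0.690%), 12 and 24 of 5×FAD-PBS (3.80% and 4.61%) and 0 of WT-PBS. The interval of the higher treated library, 0.502% to 6.91%, contained both 5×FAD-PBS shares. Ccl6 was seen in 2 and 0 thinned barcodes of 5×FAD-Aβ3FTnAu, 14 and 18 of 5×FAD-PBS, and 4 and 0 of WT-PBS. Il1a, by contrast, was seen in 0 and 6 of 5×FAD-Aβ3FTnAu, 11 and 18 of 5×FAD-PBS, and 5 and 4 of WT-PBS, with overlapping shares.

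Oligodendrocyte-marker barcodes, a class not known for transcribing these genes, served as the background at like depth, with medians of 813 to 1354 UMIs. They were required to have no rule-gene UMI, and whether their member UMIs came from free RNA, from doublets or from the cells themselves was not tested. Thinned to 500 UMIs, Ccl4 was seen in 2 of 600 and 0 of 699 of them in 5×FAD-Aβ3FTnAu, 3 of 523 and 4 of 1190 in 5×FAD-PBS, and 0 of 1082 and 0 of 589 in WT-PBS. The highest of these shares was 0.574%, below every nonzero Ccl4 share of microglia barcodes when only point values are compared. Ccl3 was seen in 3 and 1 of these barcodes in 5×FAD-Aβ3FTnAu, 1 and 3 in 5×FAD-PBS and 0 and 0 in WT-PBS. The Ccl3 share of thinned microglia barcodes in 5×FAD-Aβ3FTnAu-2, 0.690% with an interval from 0.0175% to 3.78%, could not be told from its background of 0.143%. In 5×FAD-Aβ3FTnAu-1, Ccl3 was in 3 of 124 microglia barcodes against 3 of 600 in the background, and Ccl4 in 2 of 124 against 2 of 600. These few barcodes do not place its shares clearly above background.

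**Figure D3:**
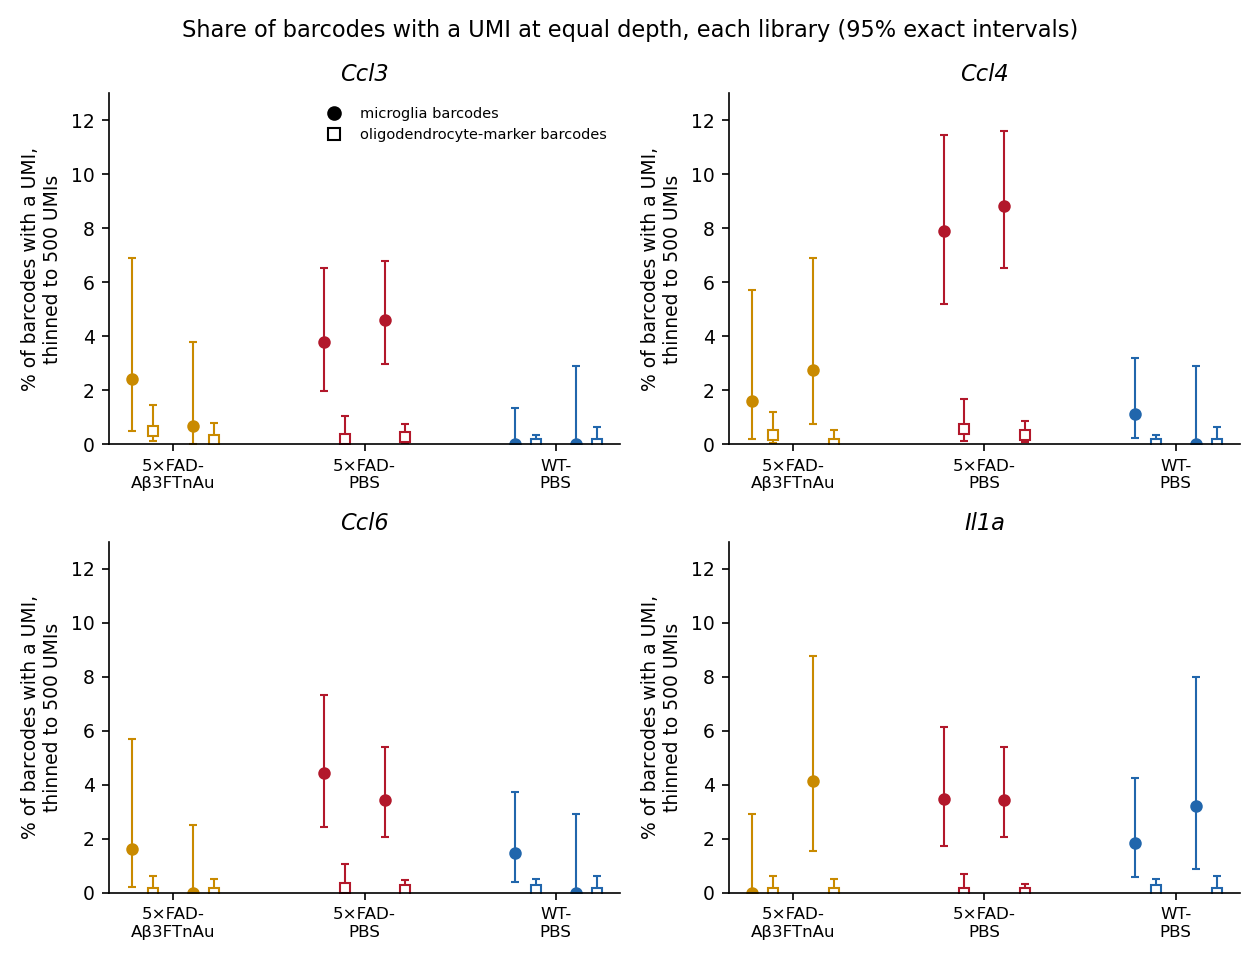
Percent of barcodes with a UMI of Ccl3, Ccl4, Ccl6 and Il1a after thinning each barcode to 500 UMIs, for the 6 libraries by group, with exact 95% intervals; filled circles are microglia barcodes and open squares are oligodendrocyte-marker barcodes. Ccl4 reaches 7.91% and 8.83% in 5×FAD-PBS and stays under 3% in the other libraries.

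Ccl3 and Ccl4 were found together in the same barcodes. In 5×FAD-PBS-1, 22 microglia barcodes had Ccl3, 38 had Ccl4 and 11 had both, where the product of the shares gives 2.65. In 5×FAD-PBS-2 the counts were 45, 72 and 19, where the product gives 6.22. In 5×FAD-Aβ3FTnAu 0 and 1 microglia barcodes had both, where the product gives 0.121 and 0.241. Joint counts were also above the product in all other barcodes of the 5×FAD libraries. There 3 and 6 had both in 5×FAD-Aβ3FTnAu, where the product gives 0.229 and 0.430, and 4 and 29 in 5×FAD-PBS, where it gives 0.804 and 2.56. These counts were not thinned, and the part of barcode depth in the joint counts was not tested.

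Microglia barcodes were also scored by the UMIs of 11 plaque-state genes (Cst7, Lpl, Itgax, Spp1, Gpnmb, Axl, Csf1, Apoe, Cd9, Ank and Trem2). In the 5×FAD libraries those with Ccl3 or Ccl4 mostly had 3 or more of these UMIs. In 5×FAD-PBS most microglia barcodes did so, 246 of 316 and 357 of 521. In 5×FAD-PBS-1, Ccl4 was seen in 1 of 18 microglia barcodes with 0 of these UMIs, 2 of 52 with 1 to 2, and 35 of 246 (14.2%) with 3 or more. In 5×FAD-PBS-2 the counts were 1 of 40, 3 of 124 and 68 of 357 (19.0%). The same bins held 0 of 43, 1 of 42 and 2 of 39 barcodes with Ccl4 in 5×FAD-Aβ3FTnAu-1, and 1 of 32, 1 of 53 and 5 of 60 in 5×FAD-Aβ3FTnAu-2. In WT-PBS-1, 144 of 271 microglia barcodes had 3 or more such UMIs and 1 of them had Ccl4. A score of 3 or more was therefore not particular to 5×FAD mice.

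Ccl3 showed the same distribution, with 22 of its 22 barcodes in 5×FAD-PBS-1 and 40 of 45 in 5×FAD-PBS-2 at 3 or more plaque-state UMIs. In 5×FAD-Aβ3FTnAu 4 of 39 (10.3%) and 3 of 60 (5.00%) barcodes of that bin had Ccl3, against 22 of 246 (8.94%) and 40 of 357 (11.2%) in 5×FAD-PBS, with overlapping ranges. Il1a did not follow it: in 5×FAD-PBS-1 it was seen in 4 of 18 barcodes with 0 plaque-state UMIs (22.2%) and 8 of 246 with 3 or more (3.25%). In 5×FAD-PBS-2 Il1a was in 1 of 40, 11 of 124 and 23 of 357 barcodes (6.44%) of the 3 bins. The bins are ranges of a score, and 48 and 114 barcodes of 5×FAD-PBS had 2 or 3 such UMIs, at the boundary. Median depths of the highest bin were 981 and 1225.5 UMIs in 5×FAD-Aβ3FTnAu, 1204.5 and 1097 in 5×FAD-PBS, and 983 and 1160 in WT-PBS. Barcodes with 0 plaque-state UMIs were shallower in every library, with medians of 873 and 832.5, 1194.5 and 915.5, and 968 and 931 in the same order. These shares were not thinned, and the part of depth in the difference between bins was not tested.

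**Figure D4:**
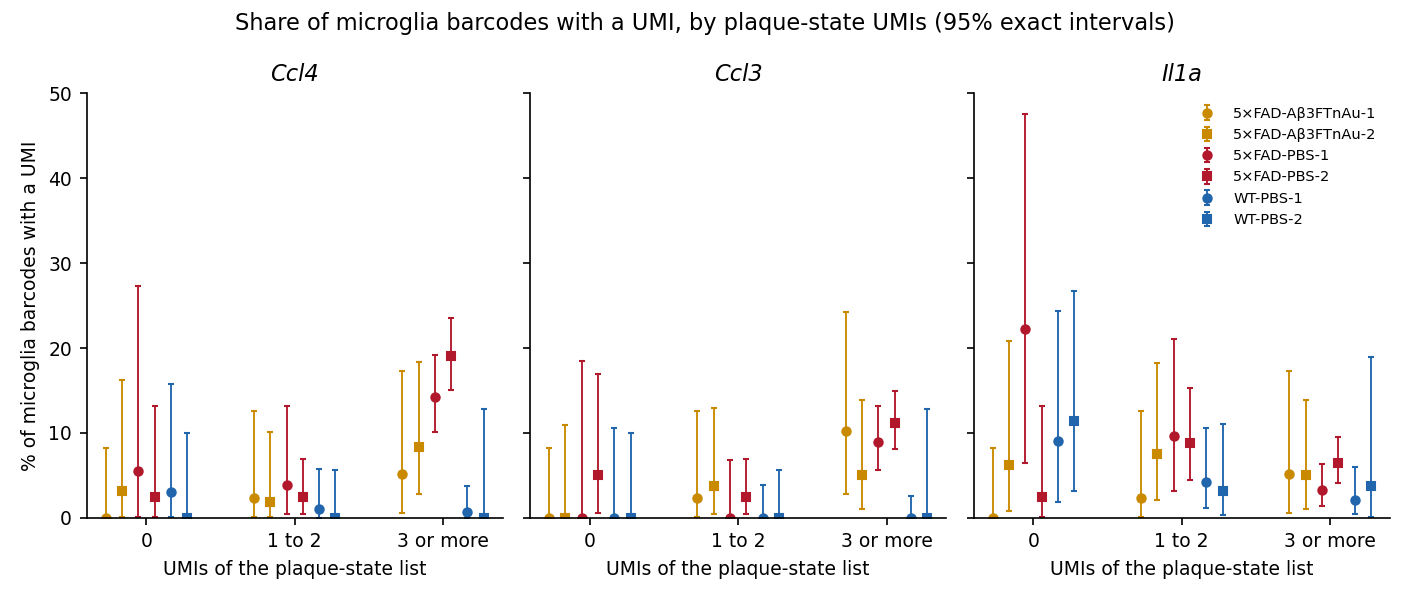
Percent of microglia barcodes with a UMI of Ccl4, Ccl3 and Il1a, unthinned, by the number of plaque-state UMIs in the barcode (0, 1 to 2, 3 or more), each library a point with its exact 95% interval. In 5×FAD-PBS the Ccl4 share is 14.2% and 19.0% in the highest bin, and the Il1a share shows no such order.

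The level of mitochondrial RNA differed between groups, so members were also counted on either side of it. Among microglia barcodes with no mitochondrial UMI, Ccl4 was at 65.6 and 65.8 CPM in 5×FAD-Aβ3FTnAu, 91.0 and 192 CPM in 5×FAD-PBS, and 11.96 and 0 CPM in WT-PBS. Ccl3 was at 52.5 and 28.2 CPM in 5×FAD-Aβ3FTnAu, 50.6 and 38.4 CPM in 5×FAD-PBS and 0 in WT-PBS. In these barcodes Ccl4 was lower in both treated libraries, from 5 and 7 UMIs, than in both 5×FAD-PBS libraries, while Ccl3 overlapped between them. WT-PBS-2 had 38 such barcodes, too few for its count of 0 to place it below the treated libraries. Among barcodes with a mitochondrial UMI, Ccl4 was at 0 and 35.5 CPM in 5×FAD-Aβ3FTnAu, 136 and 207 CPM in 5×FAD-PBS, and 9.03 and 0 CPM in WT-PBS. Ccl3 was there at 22.4 and 35.5 CPM in 5×FAD-Aβ3FTnAu and 58.8 and 110 CPM in 5×FAD-PBS, without overlap. No member had enough UMIs for the test in barcodes with no mitochondrial UMI.

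All other barcodes held most UMIs of the 9 members summed, in every library, although for Il1a the microglia barcodes held 19 of 31 UMIs in 5×FAD-PBS-1. Microglia barcodes held 0.313% and 0.407% of all UMIs in 5×FAD-Aβ3FTnAu, 1.299% and 1.447% in 5×FAD-PBS, and 0.362% and 0.444% in WT-PBS. Of the members' UMIs they held 10.5% and 12.5% in 5×FAD-Aβ3FTnAu, 33.4% and 31.8% in 5×FAD-PBS, and 17.4% and 18.6% in WT-PBS. The 9 members summed were thus concentrated in microglia barcodes in each library, and the share that microglia barcodes held was lowest in the treated libraries. Single members with few UMIs do not show this in every library: of Ccl3, microglia barcodes held 0 of 4 UMIs in each WT-PBS library. Microglia barcodes had 120884 and 162680 UMIs in 5×FAD-Aβ3FTnAu, 422214 and 612148 in 5×FAD-PBS, and 277996 and 149652 in WT-PBS.

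In all other barcodes 20679 genes were tested and 0.0% passed in edgeR's test in any of the 3 comparisons, so 0 of the 6 members tested passed. Under alternatives, Ccl3 and Ccl4 passed in 4 of 15 each in 5×FAD-PBS against WT-PBS and in 5 of 15 each in 5×FAD-Aβ3FTnAu against WT-PBS, higher throughout. In 5×FAD-Aβ3FTnAu against 5×FAD-PBS, Ccl3 passed in 3 of 15, Ccl4 and Ccl6 in 2 of 15 each and Tnf in 2 of 13, lower throughout. Those were DESeq2 for Ccl3 and the fits without WT-PBS-1 or WT-PBS-2 for all 4. At an unadjusted p under 0.05 there were 1564 genes in 5×FAD-PBS against WT-PBS, 4543 in 5×FAD-Aβ3FTnAu against 5×FAD-PBS and 7028 in 5×FAD-Aβ3FTnAu against WT-PBS. DESeq2 gave 93, 1531 and 3866 genes in the same order. The count of 0 depends on the WT-PBS libraries: without WT-PBS-2 it became 7153, 6424 and 10717, and without WT-PBS-1 it became 32, 6408 and 4067.

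Ccl4 had 80 and 110 UMIs in all other barcodes of 5×FAD-Aβ3FTnAu, 102 and 285 in 5×FAD-PBS, and 10 and 5 in WT-PBS. Its levels were 2.08 and 2.76 CPM in 5×FAD-Aβ3FTnAu, 3.18 and 6.84 CPM in 5×FAD-PBS, and 0.131 and 0.149 CPM in WT-PBS. The point values of the groups did not overlap, and the share of all genes without overlap was not counted here or for the members below. As a fold, the gap between either 5×FAD group and WT-PBS was far wider than that between the 5×FAD groups. In 5×FAD-PBS against WT-PBS the log2 fold change was 5.12 ± 0.51 (SE, edgeR adjusted p = 0.124) and the ratio of summed levels 38.5, with an exact 95% counting interval of 23.0 to 69.4. In 5×FAD-Aβ3FTnAu against 5×FAD-PBS it was -1.02 ± 0.39 (edgeR adjusted p = 0.204), and in 5×FAD-Aβ3FTnAu against WT-PBS 4.10 ± 0.51 (edgeR adjusted p = 0.0505).

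Ccl3 had 29 and 36 UMIs in 5×FAD-Aβ3FTnAu, 60 and 136 in 5×FAD-PBS, and 4 and 4 in WT-PBS. Its levels were 0.753 and 0.905 CPM in 5×FAD-Aβ3FTnAu, 1.87 and 3.26 CPM in 5×FAD-PBS, and 0.0523 and 0.119 CPM in WT-PBS, and the groups did not overlap. In 5×FAD-PBS against WT-PBS its log2 fold change was 5.00 ± 0.51 (SE, edgeR adjusted p = 0.131), and in 5×FAD-Aβ3FTnAu against 5×FAD-PBS it was -1.61 ± 0.39 (edgeR adjusted p = 0.114). Ccl6 was at 0.883 and 0.855 CPM in 5×FAD-Aβ3FTnAu, 1.78 and 2.33 CPM in 5×FAD-PBS, and 0.353 and 0.507 CPM in WT-PBS, again without overlap. Its log2 fold changes were 2.25 ± 0.32 in 5×FAD-PBS against WT-PBS (edgeR adjusted p = 0.329) and -1.22 ± 0.30 in 5×FAD-Aβ3FTnAu against 5×FAD-PBS (edgeR adjusted p = 0.117).

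Tnf had 1 and 6 UMIs in all other barcodes of 5×FAD-Aβ3FTnAu, 17 and 13 in 5×FAD-PBS, and 4 and 2 in WT-PBS. The 5×FAD-PBS libraries were highest, at 0.530 and 0.312 CPM, while 5×FAD-Aβ3FTnAu, at 0.026 and 0.151 CPM, overlapped with WT-PBS, at 0.0523 and 0.0596 CPM. The log2 fold change was 2.82 ± 0.72 in 5×FAD-PBS against WT-PBS (SE, edgeR adjusted p = 0.604) and -2.16 ± 0.70 in 5×FAD-Aβ3FTnAu against 5×FAD-PBS (edgeR adjusted p = 0.166).

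Il1a had 6 and 21 UMIs in 5×FAD-Aβ3FTnAu, 12 and 45 in 5×FAD-PBS, and 36 and 16 in WT-PBS, and the groups overlapped. Ccl12 had 21 and 24 UMIs in 5×FAD-Aβ3FTnAu, 15 and 31 in 5×FAD-PBS, and 56 and 15 in WT-PBS, with a log2 fold change of -0.03 ± 0.38 in 5×FAD-PBS against WT-PBS (SE, edgeR adjusted p = 0.979). Its ratio of summed levels there was 0.966, with an exact 95% counting interval of 0.652 to 1.42. Il1b had 7 and 5 UMIs in 5×FAD-Aβ3FTnAu, 4 and 5 in 5×FAD-PBS, and 5 and 5 in WT-PBS. Cxcl10 and Ccl2 had between 0 and 5 UMIs in each library.

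All other barcodes were also split by their UMIs of the 4 microglia rule genes, and Ccl3 and Ccl4 were higher with 3 or more of these UMIs than with 0 in each 5×FAD library. Where none was seen, and the barcode was not an oligodendrocyte-marker one, Ccl4 was at 1.51 and 1.51 CPM in 5×FAD-Aβ3FTnAu, 1.66 and 2.52 CPM in 5×FAD-PBS, and 0.0803 and 0.0770 CPM in WT-PBS. With 3 or more rule-gene UMIs it was at 6.51 and 8.82 CPM in 5×FAD-Aβ3FTnAu, 13.1 and 38.9 CPM in 5×FAD-PBS, and 0.535 and 1.20 CPM in WT-PBS. Without rule-gene UMIs, Ccl4 was thus lower in both treated libraries than in both 5×FAD-PBS libraries, the closest values being 1.51 and 1.66 CPM. Ccl4 lay above WT-PBS there in both 5×FAD groups. In oligodendrocyte-marker barcodes it was at 8.96 and 3.82 CPM in 5×FAD-Aβ3FTnAu, 5.31 and 8.93 CPM in 5×FAD-PBS and 0 in WT-PBS, with no order between the 5×FAD groups.

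Ccl3 with 0 rule-gene UMIs was at 0.360 and 0.698 CPM in 5×FAD-Aβ3FTnAu, 0.962 and 1.32 CPM in 5×FAD-PBS, and 0.0482 and 0.0385 CPM in WT-PBS. With 3 or more it was at 4.18 and 2.21 CPM in 5×FAD-Aβ3FTnAu, 7.65 and 20.9 CPM in 5×FAD-PBS, and 0 and 0.602 CPM in WT-PBS. There were 2.21 and 2.08 Ccl4 UMIs for each Ccl3 UMI in microglia barcodes of 5×FAD-PBS, and 1.70 and 2.10 in its other barcodes. In 5×FAD-Aβ3FTnAu the ratio was 1 and 1.80 in microglia barcodes, from 5 Ccl3 UMIs in each library, and 2.76 and 3.06 in the others. Whether these UMIs were transcribed in the barcode's own cell or came from free RNA was not tested.

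**Figure D5:**
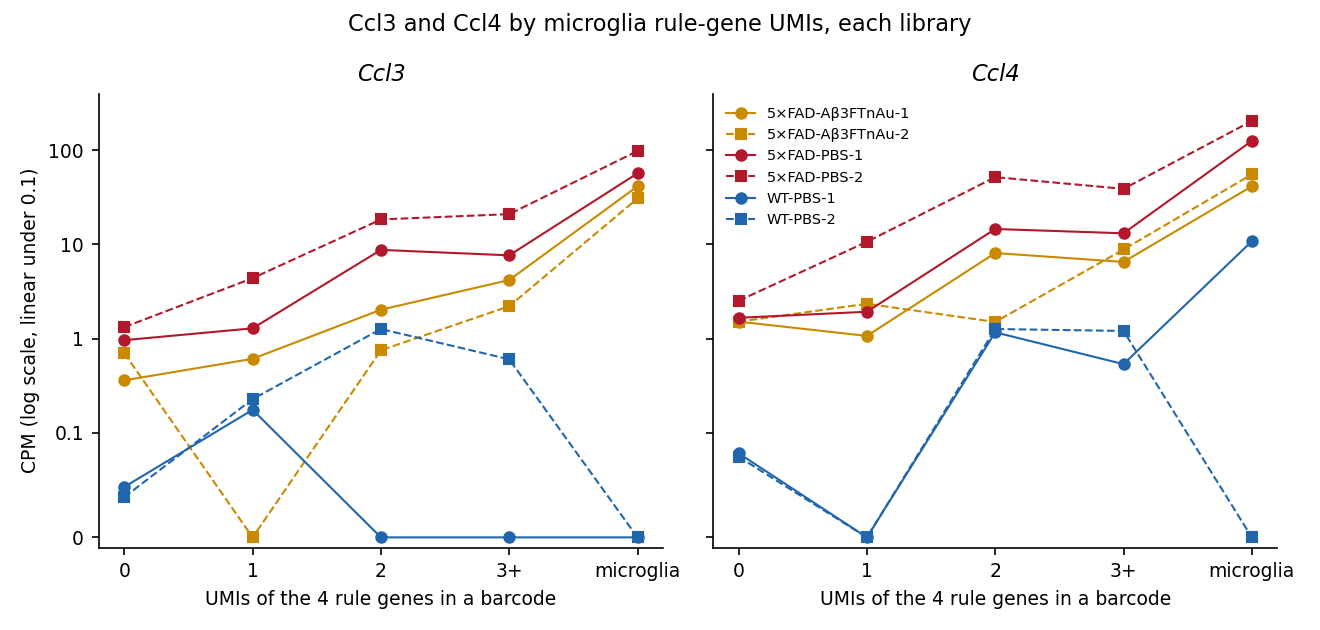
Levels of Ccl3 and Ccl4 in CPM, on an axis that is logarithmic above 0.1 and linear under it, in all other barcodes by their number of UMIs of Inpp5d, Csf1r, Cx3cr1 and Dock8 (0, 1, 2, 3 or more, oligodendrocyte-marker barcodes left out) and in microglia barcodes at the right; each line is a library. Levels are highest in microglia barcodes in the 5×FAD libraries, and WT-PBS lies below both 5×FAD groups at 0 rule-gene UMIs.

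Few genes of the surrounding pathways passed the test in microglia barcodes. Of 25 other chemokine genes in the files, 1 had enough UMIs for the test and it did not pass, and 11, among them Ccl5, Ccl7, Cxcl1 and Cxcl2, had 0 UMIs in all 6 libraries.

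Of 24 interleukin-1 pathway genes 12 were tested and 0 passed in any comparison, with medians of -0.10 in 5×FAD-PBS against WT-PBS, -0.31 in 5×FAD-Aβ3FTnAu against 5×FAD-PBS and -0.54 in 5×FAD-Aβ3FTnAu against WT-PBS. Il1rn, the receptor antagonist, had 0 UMIs in microglia barcodes of all 6 libraries. Of 17 tumour necrosis factor pathway genes 5 were tested and 0 passed. Of 13 NF-κB factors and inhibitors 6 were tested and 1 rose, Nfkbiz, an atypical nuclear IκB protein. It was at 33.1 and 36.9 CPM in 5×FAD-Aβ3FTnAu, 52.1 and 68.6 CPM in 5×FAD-PBS, and 18.0 and 13.4 CPM in WT-PBS, and its log2 fold change in 5×FAD-PBS against WT-PBS was 1.86 ± 0.51 (SE, edgeR adjusted p = 0.0388).

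Of 10 plaque-state genes tested, 8 rose and 0 fell in 5×FAD-PBS against WT-PBS, 0 rose and 2 fell in 5×FAD-Aβ3FTnAu against 5×FAD-PBS, and 4 rose and 0 fell in 5×FAD-Aβ3FTnAu against WT-PBS. Both that fell under treatment, Apoe, a lipid carrier (log2 -1.80 ± 0.23, SE, edgeR adjusted p = 0.000705), and Cst7, cystatin F (log2 -2.69 ± 0.42, edgeR adjusted p = 0.00355), were high in 5×FAD-PBS like Ccl3 and Ccl4. The 4 that rose in 5×FAD-Aβ3FTnAu against WT-PBS were Ank, Csf1, Lpl and Axl. Among those that rose in 5×FAD-PBS against WT-PBS, the smallest p belonged to Apoe (log2 2.38 ± 0.24), Cst7 (6.03 ± 0.61), Lpl (4.46 ± 0.48) and Ank (2.94 ± 0.34).

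Ccl3, Ccl4 and Tnf can also be transcribed by microglia during tissue dissociation, together with immediate early genes. Of 22 early-response genes 5 were tested, 0 rose and 1 fell, Hsp90aa1, a chaperone, in 5×FAD-PBS against WT-PBS (log2 -1.56 ± 0.43, SE, edgeR adjusted p = 0.0394). The summed level of the list was 290 and 387 CPM in 5×FAD-Aβ3FTnAu, 426 and 539 CPM in 5×FAD-PBS, and 633 and 568 CPM in WT-PBS, and Fosb and Hspa1a had 0 UMIs. The list was lower in both treated libraries than in 5×FAD-PBS, as Ccl3 and Ccl4 were, and higher in WT-PBS, and its part in their levels was not tested. Neuron markers in microglia barcodes summed to 2068 and 1358 CPM in 5×FAD-Aβ3FTnAu, 1388 and 1464 CPM in 5×FAD-PBS, and 2471 and 2245 CPM in WT-PBS. Oligodendrocyte markers summed to 1506 and 1408 CPM in 5×FAD-Aβ3FTnAu, 933 and 915 CPM in 5×FAD-PBS, and 1173 and 1884 CPM in WT-PBS, and border macrophage markers to 207 and 117 CPM in 5×FAD-Aβ3FTnAu, 104 and 109 CPM in 5×FAD-PBS, and 205 and 221 CPM in WT-PBS. Both lists were thus lowest in 5×FAD-PBS, where Ccl3 and Ccl4 were highest. Astrocyte markers summed to 215 and 215 CPM in 5×FAD-Aβ3FTnAu, 353 and 348 CPM in 5×FAD-PBS, and 435 and 394 CPM in WT-PBS. Endothelial and mural markers summed to 99.3 and 92.2 CPM in 5×FAD-Aβ3FTnAu, 185 and 134 CPM in 5×FAD-PBS, and 50.4 and 66.8 CPM in WT-PBS. The 1 gene of that list tested, Flt1, was at 82.7 and 73.8 CPM in 5×FAD-Aβ3FTnAu, 168 and 116 CPM in 5×FAD-PBS and 0 in WT-PBS, and rose against WT-PBS in 5×FAD-Aβ3FTnAu (edgeR adjusted p = 0.00311) and in 5×FAD-PBS (edgeR adjusted p = 3.3e-05), while Ly6c1 and Pdgfrb had 0 UMIs. Flt1 thus made up most of each 5×FAD sum and no part of the WT-PBS sums. The rest of that list was lower in each 5×FAD library than in both WT-PBS libraries, so only Flt1 had the order of Ccl3 and Ccl4. The part of any of these marker lists in the chemokine levels was not tested.

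Over the 6 libraries, the levels of Ccl4 in microglia barcodes, as log2 of CPM plus 10, were most like those of Nfkbiz (Pearson r = 0.996), Ptpn4 (0.996) and Cd34 (0.995). For Ccl3 they were most like Bend6 (0.997), Glb1 (0.988) and Usp12 (0.983), for Ccl6 like Cst7 (0.981), Lonrf3 (0.978) and Rars (0.977), for Ccl12 like Marf1 (0.990), Mob1a (0.978) and Axin1 (0.976), and for Il1a like Dhdds (0.991), A930024E05Rik (0.987) and Trpv2 (0.980). With 6 points from 3 groups that share library and depth, high values are common: 108 of 5606 genes had r over 0.9 with Ccl4, 120 with Ccl3 and 47 with Il1a.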

How the data were processed

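The authors deposited matrices of UMI counts, a row for each gene and a column for each barcode, made per the file headers by Cell Ranger 7.1.0. The build mm10 and Seurat 4.3.0.1 are named per the submitters' processing notes, and whether reads in introns count is not stated there. A barcode was kept with 500 UMIs or more and no more than 15% of them mitochondrial, which left out 79 of 50224. No doublets were removed. An alternative kept microglia barcodes with at most 5000 UMIs and under 5% of UMIs from markers of other classes. Oligodendrocyte-marker barcodes had at least 3 of 10 markers, at least 1% of their UMIs from them and no rule-gene UMI.

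Counts were summed per library and class and tested with edgeR 4.0.16 in R 4.3.3 (TMM, filterByExpr, quasi-likelihood F test, all 6 libraries in 1 fit, 3 residual degrees of freedom, Benjamini-Hochberg adjusted p under 0.05), after tests on simulated data. Each standard error was computed as the size of the log2 fold change divided by √F. DESeq2 1.42.0 was an alternative. Shares have exact Clopper-Pearson 95% intervals, and a count of 0 has the limit of 3 counts. Thinning used Python 3.11.15 and numpy 2.4.6. Named genes are the 9 members, at most 4 genes per pathway list and comparison past the threshold, and the 3 genes most alike each member with at least 20 UMIs. The members and gene lists were chosen with earlier results of these data known. A result on chemokine receptors is not reported here.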

Additional observations from a re-analysis of the deposited data

How the results depend on the processing

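The alternatives changed the test, size factors, filter on low counts, filter on barcodes, microglia rule, markers of other classes, mitochondrial UMIs, border macrophages, pairing or the libraries used. Deeper barcodes set a minimum of both UMIs and genes, and few markers of other classes also set at most 5000 UMIs, so each of these changed a pair of limits at once. Over the members, 50 of 51 values kept direction and call in microglia barcodes for 5×FAD-PBS against WT-PBS, 45 of 51 for 5×FAD-Aβ3FTnAu against 5×FAD-PBS and 39 of 51 for 5×FAD-Aβ3FTnAu against WT-PBS. Depth limits the treated group most: its microglia barcodes held 120884 and 162680 UMIs, so its members rest on 0 to 9 UMIs each. The causes of the changes below were not tested.

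In microglia barcodes the 305 genes called for 5×FAD-PBS against WT-PBS became 85 with DESeq2, 97 with no mitochondrial UMI and 200 under the stricter rule, and 146 to 721 with a library left out (146 without 5×FAD-PBS-1, 184 without 5×FAD-PBS-2, 721 without WT-PBS-2). The 23 called for 5×FAD-Aβ3FTnAu against 5×FAD-PBS became 44 with few markers of other classes, 37 under the looser rule, 12 with DESeq2, 110 with no filter and 3 with no mitochondrial UMI, and 18 to 213 with a library left out (40 without 5×FAD-PBS-1, 213 without WT-PBS-1, 211 without WT-PBS-2). The 223 called for 5×FAD-Aβ3FTnAu against WT-PBS became 99 in deeper barcodes, 351 under the looser rule, 82 with DESeq2, 349 with no filter and 129 with no mitochondrial UMI, and 93 to 672 with a library left out (93 without 5×FAD-Aβ3FTnAu-2, 672 without WT-PBS-2).

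Same-numbered libraries did not deviate together over genes (r from -0.134 to 0.032). Each r compares the replicate difference of a group with that of another group. It cannot decide whether same-numbered libraries were processed together, which the sample labels do not state. With the replicate number as a block, the microglia counts were 200, 16 and 126 in the order above, and 0 in all other barcodes. In that fit Ccl3 missed the threshold in 5×FAD-Aβ3FTnAu against WT-PBS (adjusted p = 0.0538).

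In all other barcodes the counts of 0 became 93 with DESeq2 and 10 with no filter for 5×FAD-PBS against WT-PBS, and 0 to 7153 with a library left out. They became 1531 with DESeq2, 87 with no filter and 19 with no mitochondrial UMI for 5×FAD-Aβ3FTnAu against 5×FAD-PBS, and 0 to 6424 with a library left out. For 5×FAD-Aβ3FTnAu against WT-PBS they became 3866, 1856 and 499 in that order, and 0 to 10717.

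Thinned to 1000 in place of 500 UMIs, the mean share with any member was 18.2% in 5×FAD-Aβ3FTnAu, 28.1% in 5×FAD-PBS and 12.7% in WT-PBS microglia barcodes (6.62%, 18.8% and 4.95% at 500), and 0.571%, 1.31% and 0.224% in all other barcodes (0.385%, 1.14% and 0.209% at 500).

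Values that changed sign were all of uncalled members, and ranges over left-out libraries follow. In microglia barcodes Il1a ranged from -1.07 to 0.079 in 5×FAD-Aβ3FTnAu against 5×FAD-PBS, and from -0.77 to 0.38 in 5×FAD-Aβ3FTnAu against WT-PBS, both highest without 5×FAD-Aβ3FTnAu-1, and was 0.23 in the second without WT-PBS-2 and 0.11 with few markers of other classes. In all other barcodes Ccl12 ranged from -0.39 to 0.395 in 5×FAD-PBS against WT-PBS (0.24 without 5×FAD-PBS-1), from -0.33 to 0.30 in 5×FAD-Aβ3FTnAu against 5×FAD-PBS (0.0084 without 5×FAD-Aβ3FTnAu-1) and from -0.35 to 0.32 in 5×FAD-Aβ3FTnAu against WT-PBS. Ccl12 was further at 0.0068 in deeper barcodes, 0.59 with no rule-gene UMI and 0.005 under the stricter rule in 5×FAD-Aβ3FTnAu against 5×FAD-PBS, and at 0.17 with no rule-gene UMI against WT-PBS. Il1a ranged from -0.36 to 1.12 in 5×FAD-PBS against WT-PBS and from -1.58 to 0.14 in 5×FAD-Aβ3FTnAu against WT-PBS, where Tnf ranged from -0.997 to 1.40.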
